A study of Mus musculus with 86 samples.

Results

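The genes described here encode the 4 families of guidance cues and their receptors, namely ephrins with Eph receptors, semaphorins with plexins and neuropilins, Slits with Robos, and netrins with Unc5 receptors. Members were taken by gene symbol from the authors' table of expressed genes, and 47 of its 12360 rows carry such a symbol. They hold 24 ligand rows, 22 receptor rows and Unc50, which shares only the name and is a membrane protein with no guidance role. Sema3a fills 2 of the ligand rows, so the rows stand for 46 genes.

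RNA was measured in 86 single cells of the metanephros, the permanent kidney, from wild type mouse embryos of a mixed background at 12.5 dpc (days post coitum, Theiler stage 20), with males and females together. Kidneys were pooled before the cells were parted with trypsin and caught on a microfluidic chip, so all cells are 1 sample. No difference was tested, no p-value is given, and an SD is the spread over cells. The values are RPKM, read numbers divided by gene length and by the mapped reads of the cell, so levels can be set side by side between genes.

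The cells were divided by 2 genes outside the families. Bud cells are the 7 cells with a Mal2 RPKM of at least 100, Mal2 being a membrane protein of polarized epithelia. Their lowest Mal2 RPKM was 1219, and the highest in any other cell was 3.41. Of the other cells, 46 detected Six2 (RPKM of at least 1), a transcription factor of nephron progenitors, with a lowest value of 1.50 inside this group. The 33 remaining cells had a highest Six2 RPKM of 0.527. The bud cells detected a median of 14 of the 15 listed ureteric bud markers, and the other groups a median of 1.5 and 1. This list includes Mal2, which every bud cell detects by the rule of the group. Ret, the bud tip receptor, was detected in 6 of 7 bud cells and in no other cell. The Six2-detecting cells detected a median of 9 of 10 listed nephron progenitor markers, while bud cells detected 4 and remaining cells 3. Six2 is itself in this list, so by rule every Six2-detecting cell detects it and no remaining cell does. The remaining cells are mixed, with a median of 11 of 14 stroma markers, against 7.5 in Six2-detecting and 3 in bud cells. Foxd1, a stroma gene, was detected in 25 of them, and Pax8, Wnt4 or Lhx1, genes of induced nephrons, in 8. These 3 genes are not confined to the remaining cells. Pax8 was detected in 3 of 7 bud and 17 of 46 Six2-detecting cells, Wnt4 in 1 and 8, and Lhx1 in 4 and 5. Of 10 listed induced nephron markers, the median cell detected 4 in bud and 2 in each other group. Foxd1 was also detected in 31 of the 46 Six2-detecting cells, and Six2 in 3 of the 7 bud cells (RPKM from 12.1 to 50.4). Meis1, a further stroma gene, had a mean RPKM of 30.1 in bud, 112 in Six2-detecting and 172 in remaining cells. Each cell detected a median of 6488 listed genes in the bud group, 6256 in the Six2-detecting group and 6087 in the remaining group. The 5 cells with far fewer genes than the rest comprise 1 Six2-detecting and 4 remaining cells. No pair of cells had identical values, no doublet caller was run, and the read depth behind the values is unknown. Of endothelial markers only Emcn is listed, and of blood markers only Cd68, and the median cell of each group detected neither.

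Guidance cues are secreted or membrane-bound proteins that attract or repel cells and cell extensions bearing the matching receptor. Slit proteins bind Robo receptors, and in the kidney Slit2 and Robo2 are known for holding the site of bud outgrowth to a single place. Ephrins and Eph receptors both sit in the membrane and signal in both directions on contact, while secreted class 3 semaphorins bind neuropilins that pair with plexins, and netrins bind Dcc, neogenin and the repulsive Unc5 receptors.

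The families did not move as a unit between the cell groups. Bud cells had more ephrin-B2 (Efnb2), Sema3c, Sema4d and Plxna1 than either other group, and less Unc5c, Efnb1 and Sema3a. Six2-detecting cells had the most Robo2, and remaining cells had more Slit3, Ntn1 and Sema3a than Six2-detecting cells. A row was counted as higher or lower when the ratio of (mean RPKM + 1) was at least 2-fold, that is at least 1 in size on the log2 scale. Adding 1 to each mean makes ratios of genes with low RPKM smaller than the ratios of their means.

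Between bud and Six2-detecting cells, 12 of 47 rows were at least 2-fold higher in bud (10.3% of all listed genes were), and 10 rows were lower (20.9% of all listed genes). The median log2 ratio was 0.06 over the 47 rows and -0.19 over all 12360 genes. Among ligands 6 were higher and 7 lower, and among receptors 6 were higher and 3 lower. Of the 7 Eph receptors, 4 were higher in bud and none was lower. Of the 12 higher rows, 6 stayed at least 2-fold higher whichever single cell was left out: Efnb2, Sema3c, Sema4d, Sema6a, Efna5 and Plxna1. Of the 10 lower rows 8 did, all but the upstream Sema3a row and Ntn3.

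Between bud and remaining cells, 10 rows were higher in bud (12.3% of all listed genes) and 12 were lower (22.0%). The medians were 0.19 over the members and -0.14 over all genes. Ligands had 6 rows higher and 7 lower, and receptors 4 higher and 5 lower. Leaving out any single cell kept 5 of the 10 higher rows at 2-fold, namely Efnb2, Sema3c, Sema4d, Slit2 and Plxna1, and 9 of the 12 lower rows. Both bud comparisons share the 7 bud cells.

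Between Six2-detecting and remaining cells, 6 rows were higher (7.40% of all listed genes) and 7 were lower (7.65%). The medians were -0.34 over the members and 0.02 over all genes. Ligands had 4 rows higher and 5 lower, and receptors 2 higher and 2 lower. Of the 6 higher rows 5 kept a 2-fold ratio whichever single cell was left out, all but Unc5b, and of the 7 lower rows 4 did, all but Epha7, Plxnd1 and Efna5. No row separated bud cells from either other group, since the values of every member overlapped in both comparisons. How many of all listed genes separate these groups is not given here, so the overlap is not read as particular to the members.

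The size of many differences depended on how cells were averaged. By the mean of log2(RPKM + 1) per cell, in which a few high cells weigh less, some members given with full values no longer differed 2-fold. They were Ephb2, the downstream Sema3a row, Sema3f, Efna2 and Efnb3 for bud over Six2-detecting cells. For bud over remaining cells they were Epha7, Sema3f, Slit3, Ephb3, Sema6a and Sema4g, and for Six2-detecting over remaining cells Epha7, Efnb2, Efna2, Slit3, Ntn1 and Efna5. Others passed 2-fold only by this average, namely Slit2 (1.31) for bud over Six2-detecting and Epha4 (-1.08) for Six2-detecting over remaining cells. For bud over remaining cells Ephb4 (1.48), Nrp1 (1.53) and Plxnb2 (-1.07) did so. With 10 in place of 1 added to each mean, the members given with full values that were still at 2-fold were Efnb2, Sema3c, Sema6a, Efna5 and Unc5c for bud over Six2-detecting cells. In the same way Efnb2, Sema3c, Efnb1, Unc5c and the downstream Sema3a row stayed for bud over remaining cells, and Robo2, Efna5 and that Sema3a row for Six2-detecting over remaining cells.

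**Figure D1:**
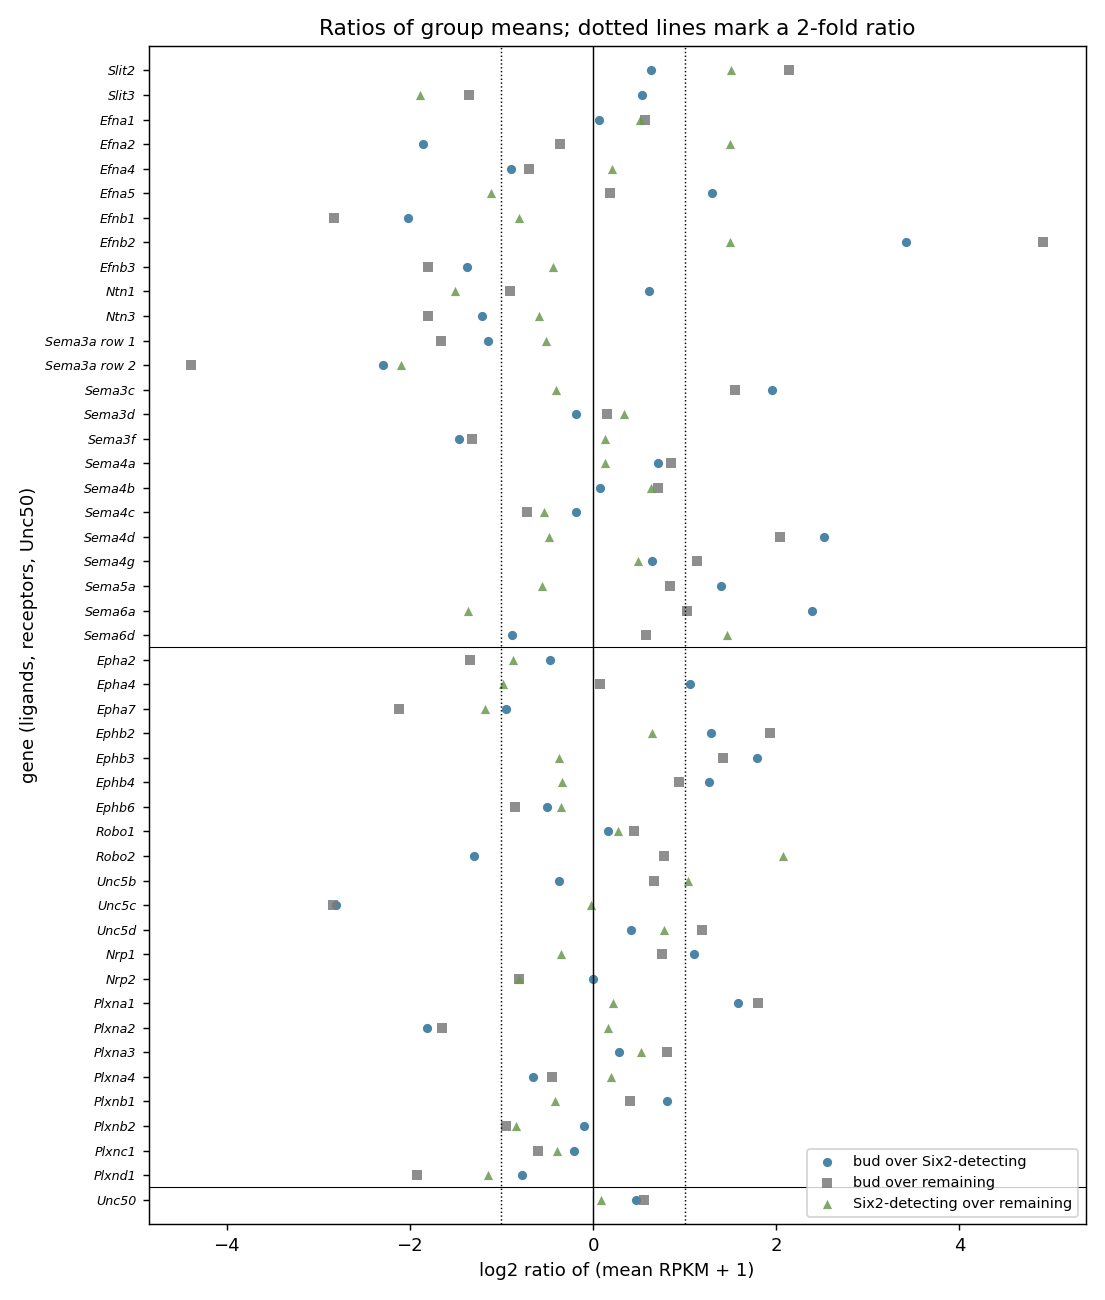
The log2 ratio of (mean RPKM + 1) for each of the 47 rows (vertical axis, ligands above receptors), with circles for bud over Six2-detecting cells, squares for bud over remaining cells and triangles for Six2-detecting over remaining cells. Efnb2 lies farthest right at 4.91 and the downstream Sema3a row farthest left at -4.39, both for bud over remaining cells; rows listed at 0 in every bud cell are drawn with their mean of 0, and their bud ratios are not interpreted.

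The start regions of 4 genes are shown as examples of the different patterns, and other members had ratios as large: Efnb2 and Sema3c were high in bud cells, while Robo2 was highest in Six2-detecting cells and Unc5c was low in bud cells. Each line holds the 250 bases before the start site, read 5′ to 3′ on the gene's strand from RefSeq on GRCm38.p6, with every CG pair in capitals. They lie at chr8:8661243-8661492 (minus strand, Efnb2), chr5:17574566-17574815 (plus, Sema3c), chr16:74411826-74412075 (minus, Robo2) and chr3:141465314-141465563 (plus, Unc5c).
Efnb2: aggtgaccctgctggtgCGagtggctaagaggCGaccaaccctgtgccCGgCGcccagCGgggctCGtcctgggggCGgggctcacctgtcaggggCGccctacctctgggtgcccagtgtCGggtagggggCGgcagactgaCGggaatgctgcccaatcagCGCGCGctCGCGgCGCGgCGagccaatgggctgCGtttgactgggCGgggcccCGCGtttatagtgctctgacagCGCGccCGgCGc
Sema3c: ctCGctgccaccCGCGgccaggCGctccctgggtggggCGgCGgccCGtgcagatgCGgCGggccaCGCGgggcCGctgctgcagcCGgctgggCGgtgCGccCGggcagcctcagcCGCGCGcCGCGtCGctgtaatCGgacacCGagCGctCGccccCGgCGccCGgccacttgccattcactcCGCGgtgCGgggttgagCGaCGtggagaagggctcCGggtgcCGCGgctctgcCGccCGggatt
Robo2: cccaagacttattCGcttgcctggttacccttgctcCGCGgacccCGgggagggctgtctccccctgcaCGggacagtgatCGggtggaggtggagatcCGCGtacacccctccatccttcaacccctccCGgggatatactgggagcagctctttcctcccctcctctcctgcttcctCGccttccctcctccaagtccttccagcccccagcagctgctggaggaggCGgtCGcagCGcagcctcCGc
Unc5c: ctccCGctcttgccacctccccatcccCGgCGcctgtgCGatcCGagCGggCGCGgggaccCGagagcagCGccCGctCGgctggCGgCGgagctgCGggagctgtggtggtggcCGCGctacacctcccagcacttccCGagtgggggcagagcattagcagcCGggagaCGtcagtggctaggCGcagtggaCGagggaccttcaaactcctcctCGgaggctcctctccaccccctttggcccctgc
The CG pairs number 27 in Efnb2, 39 in Sema3c, 14 in Robo2 and 23 in Unc5c. The median was 16 over the 52 start regions found for 39 of the 46 genes, and 6 over all 32851 start regions of the same length. Efnb2, Sema3c and Unc5c thus lie above both medians, and Robo2 lies between them. Robo2 has 3 start sites in RefSeq, and the one shown gives the span (519849 bases) nearest that of the authors' model (518606 bases). None of 4 short motifs searched on both strands occurs in these regions, which says only that these letters are not in these windows. The GATA factor motif AGATAA is found in 9.99% of all start regions. The motif of Six2 and its relatives, TCAGGTT, is found in 3.49% of them. For TCF/LEF factors, which act in Wnt signalling, CTTTGAT is found in 3.21%, and for HNF1 factors of kidney epithelia GTTAAT is found in 6.43%.

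**Figure D2:**
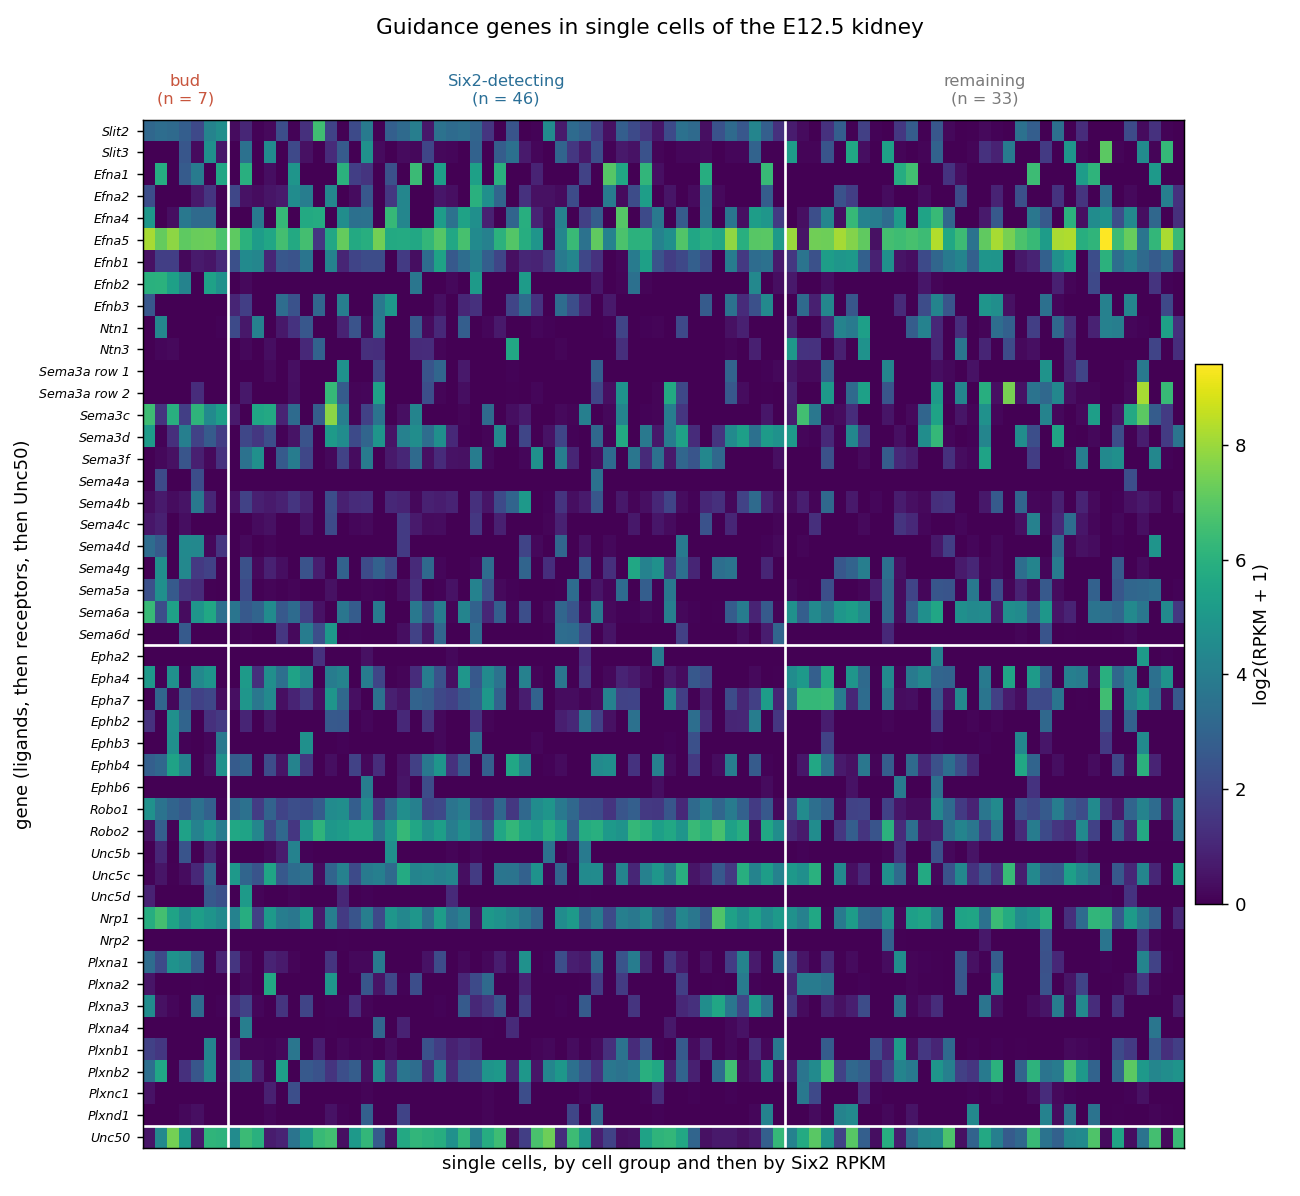
RPKM of the 47 rows (vertical axis, ligands, then receptors, then Unc50) in each of the 86 cells (horizontal axis, by group and then by Six2 RPKM), as log2(RPKM + 1) in color. Efna5 is bright in nearly every cell, Efnb2 in 6 of 7 bud cells and few others, and Robo2 in 45 of 46 Six2-detecting cells.

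Slit2, a secreted ligand of Robo receptors (chromosome 5, 48374394 to 48697017, mm9), was detected in every bud cell. The lowest, median and highest RPKM were 3.26, 8.53 and 24.4 in bud, 0, 3.34 and 90.3 in Six2-detecting and 0, 0.139 and 10.3 in remaining cells, where 12 of 33 cells detected it. The means were 11.0 (SD 7.38), 6.73 (SD 13.7) and 1.72 (SD 2.88), in the same order. All 7 bud cells lay above the median of the remaining cells and 6 of 7 above that of the Six2-detecting cells, and the groups overlapped. The log2 ratio was 2.14 for bud over remaining cells and 1.51 for Six2-detecting over remaining cells. For bud over Six2-detecting cells it was 0.63, under the 2-fold limit. Cell 52 alone gave 29.2% of the summed Slit2 RPKM of the Six2-detecting cells, and without it that ratio was 1.03. By the mean of log2(RPKM + 1) per cell, bud and Six2-detecting cells differed by 1.31, over the 2-fold limit.

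Slit3, the other Slit listed, had the opposite order outside the bud. It was detected in 2 of 7 bud, 15 of 46 Six2-detecting and 12 of 33 remaining cells, and lowest, median and highest values were 0, 0.222 and 24.6, 0, 0.161 and 25.9 and 0, 0.0933 and 132. The median cell of each group therefore did not detect Slit3, and a few high cells made the means of 4.28 (SD 9.10), 2.64 (SD 5.36) and 12.5 (SD 27.9). The log2 ratio of Six2-detecting over remaining cells was -1.89, and that of bud over remaining cells was -1.36 (-0.89 without cell 87). Without the 5 cells of few genes these ratios were -1.03 and -0.52. Cells of few genes thus move with the high Slit3 mean of the remaining group, and their part in it was not tested.

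Robo2, a Slit receptor (chromosome 16, 73892551 to 74411157, mm9), was the receptor with the highest mean over all cells, at an RPKM of 25.6. Six2-detecting cells had a lowest, median and highest RPKM of 0.232, 38.2 and 100.2 (mean 39.4 (SD 23.2)). Bud cells had 0.105, 14.0 and 41.0 (mean 15.4 (SD 15.2)), and remaining cells 0.0265, 2.39 and 64.7 (mean 8.57 (SD 14.2)). It was detected in 45 of 46 Six2-detecting cells (97.8%, interval 88.5 to 99.9%), in 5 of 7 bud cells (71.4%, interval 29.0 to 96.3%) and in 25 of 33 remaining cells (75.8%, interval 57.7 to 88.9%). These exact Clopper-Pearson 95% intervals cover counting error only. The median Six2-detecting cell was above all but the highest bud cell. The log2 ratios were 2.08 for Six2-detecting over remaining, -1.30 for bud over Six2-detecting and 0.78 for bud over remaining cells. The microRNA gene Mir691 lies inside Robo2, and the library kit does not mark strand, so their reads are not told apart.

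Robo1 differed less between the groups than Robo2 did by the same ratios. Its means were 9.54 (SD 8.27) in bud, 8.37 (SD 7.38) in Six2-detecting and 6.73 (SD 7.12) in remaining cells, with medians and ends of 0.0685, 7.15 and 26.4, 0.166, 6.15 and 28.7 and 0.0314, 3.57 and 22.1. It was detected in 6 of 7, 45 of 46 and 24 of 33 cells. All of its ratios were under 2-fold, with 0.45 for bud over remaining cells as the highest. Every bud cell and every Six2-detecting cell detected Robo1 or Robo2, as did 30 of 33 remaining cells.

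Shared detection of Slit2 and Robo2 was most frequent in bud and Six2-detecting cells. Slit2 and Robo2 were both detected in 5 of 7 bud cells, 31 of 46 Six2-detecting cells and 9 of 33 remaining cells. The 2 other bud cells detected Slit2 without Robo2. A further 14 Six2-detecting and 16 remaining cells detected Robo2 without Slit2. In the Six2-detecting group the shared detection follows from the near universal detection of Robo2, since only 1 of its 32 Slit2-detecting cells lacked Robo2.

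**Figure D3:**
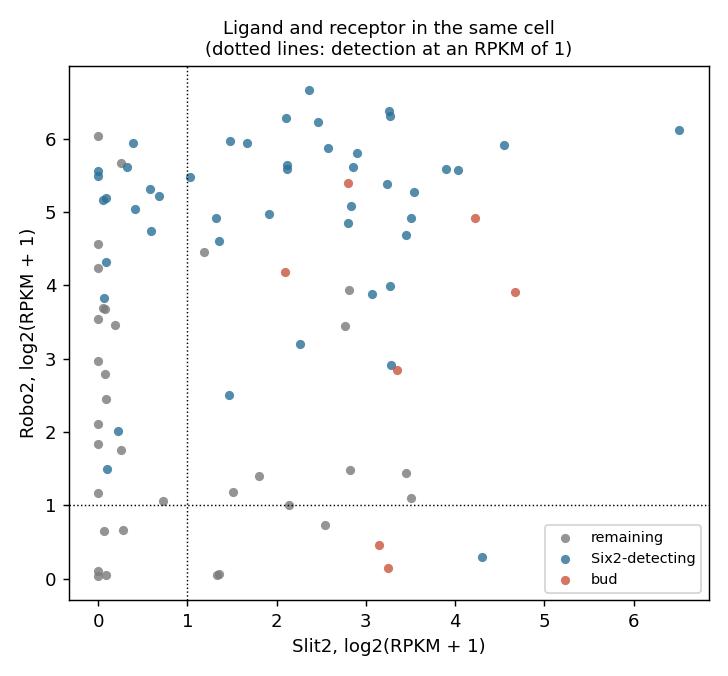
Slit2 (horizontal) against Robo2 (vertical), each as log2(RPKM + 1), with 1 point per cell colored by group and dotted lines at an RPKM of 1. The upper right quadrant, where both are detected, holds 5 bud, 31 Six2-detecting and 9 remaining cells.

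Ephrin-B2 (Efnb2, chromosome 8, 8617439 to 8660773, mm9), a membrane ligand of Eph receptors, was the member with the highest bud ratios. The 7 bud cells had RPKM values of 0, 17.4, 26.1, 40.1, 40.8, 61.8 and 64.1 (mean 35.8 (SD 23.2)). In Six2-detecting cells the lowest, median and highest values were 0, 0 and 34.8 (mean 2.44 (SD 7.80)), and in remaining cells 0, 0 and 3.24 (mean 0.221 (SD 0.638)). It was detected in 6 of 7 bud cells (85.7%, interval 42.1 to 99.6%), 5 of 46 Six2-detecting cells (10.9%, interval 3.62 to 23.6%) and 2 of 33 remaining cells (6.06%, interval 0.743 to 20.2%). A single bud cell was at 0, and the other 6 were above every remaining cell. The log2 ratio was 3.42 against Six2-detecting and 4.91 against remaining cells. Leaving out any single cell gave 3.22 to 3.76 and 4.71 to 5.13. Between the other groups the ratio was 1.49 for Six2-detecting over remaining cells, from 5 and 2 detecting cells.

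Ephrin-B1 (Efnb1), its close relative, showed the reverse order. The bud values had a lowest, median and highest of 0.145, 0.620 and 2.35 (mean 1.06 (SD 0.936)), against 0, 3.55 and 43.1 (mean 7.35 (SD 9.46)) in Six2-detecting and 0, 7.61 and 64.7 (mean 13.6 (SD 15.2)) in remaining cells. It was detected in 3 of 7, 35 of 46 and 26 of 33 cells. No bud cell reached the median of either other group. The log2 ratio was -2.02 for bud over Six2-detecting and -2.83 for bud over remaining cells. Ephrin-B3 (Efnb3) was also lower in bud, where cell 3 alone was above 0, at 4.84. Six2-detecting cells had a lowest, median and highest value of 0, 0.157 and 30.9 (mean 3.37 (SD 6.24), 19 of 46 cells), and remaining cells had 0, 0 and 28.9 (mean 4.91 (SD 8.23), 13 of 33 cells). The mean in bud was 0.691 (SD 1.83), with log2 ratios of -1.37 and -1.81.

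Ephrin-A5 (Efna5), a lipid-anchored ligand of EphA receptors, had the highest RPKM of all members in the mean over all cells, at 109. Its lowest, median and highest values were 107, 154 and 290.4 in bud, 0.161, 58.6 and 231 in Six2-detecting and 0.343, 101 and 679 in remaining cells, detected in 7 of 7, 45 of 46 and 31 of 33 cells. Every bud cell lay above the median of the Six2-detecting cells. The means were 173 (SD 62.2), 69.5 (SD 48.1) and 151 (SD 136), with log2 ratios of 1.30 for bud over Six2-detecting and -1.11 for Six2-detecting over remaining cells. The latter was -0.94 without cell 87 and -0.89 without the cells of few genes. Bud and remaining cells differed by 0.19.

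The other A-class ephrins were detected in some cells of each group. Efna2 had means of 0.845 (SD 1.39) in bud, 5.70 (SD 11.9) in Six2-detecting and 1.37 (SD 3.20) in remaining cells, with lowest, median and highest values of 0, 0 and 3.65, 0, 0.341 and 62.2 and 0, 0 and 15.5. Its mean was thus highest in Six2-detecting cells (log2 ratio -1.86 for bud over Six2-detecting, 1.50 for Six2-detecting over remaining), with 2 of 7, 17 of 46 and 9 of 33 cells detecting it. By the mean of log2(RPKM + 1) per cell these differences were -0.78 and 0.73, under the 2-fold limit. Efna4 was found in most cells of each group (4 of 7, 27 of 46 and 20 of 33), with means of 8.61 (SD 10.9), 16.9 (SD 26.1) and 14.5 (SD 22.2) and highest values of 30.4, 121 and 79.4. Its ratios were under 2-fold, the largest being -0.90 for bud over Six2-detecting cells. Efna1 was detected in 4 of 7, 16 of 46 and 7 of 33 cells with means from 11.4 to 17.3, and no ratio reached 2-fold.

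The Eph receptors, tyrosine kinases that bind ephrins, were higher in bud than in Six2-detecting cells for 4 of 7 members: Epha4, Ephb2, Ephb3 and Ephb4. None of these 4 ratios stayed at 2-fold when the highest bud cell was left out. Ephb2 had lowest, median and highest values of 0, 1.53 and 25.2 in bud, 0, 0 and 14.9 in Six2-detecting and 0, 0 and 7.96 in remaining cells (means 5.33 (SD 9.10), 1.59 (SD 3.42) and 0.656 (SD 1.90); 5 of 7, 14 of 46 and 4 of 33 cells). Its log2 ratios were 1.29 and 1.93, and without bud cell 74 they were 0.22 and 0.86. The share of cells that detected Ephb2 was still highest in bud.

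Ephb4 had values of 0, 7.92 and 42.1, 0, 0.391 and 46.7 and 0, 0.501 and 64.1, lowest, median and highest in bud, Six2-detecting and remaining cells. Its means were 14.3 (SD 15.4), 5.34 (SD 9.55) and 6.98 (SD 15.5), from 5 of 7, 22 of 46 and 14 of 33 detecting cells. Bud over Six2-detecting cells gave a log2 ratio of 1.27, and 0.75 without bud cell 74. Ephb3 was rarer, in 2 of 7, 3 of 46 and 4 of 33 cells, with means of 5.42 (SD 9.78), 0.851 (SD 3.99) and 1.40 (SD 4.94) and highest values of 24.7, 25.4 and 21.5. The median cell of each group did not detect it. Its log2 ratios of 1.79 and 1.42 for bud over the other groups were 0.79 and 0.42 without bud cell 74.

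Epha4, which binds ephrins of both classes, had nearly the same mean in bud and remaining cells. Lowest, median and highest values were 0, 19.9 and 33.0 in bud, 0, 0.750 and 41.4 in Six2-detecting and 0, 8.62 and 60.3 in remaining cells, and 4 of 7, 22 of 46 and 22 of 33 cells detected it. The means were 15.2 (SD 14.7), 6.79 (SD 10.4) and 14.4 (SD 16.1). The log2 ratio of bud over Six2-detecting cells was 1.06, 0.76 without bud cell 3 and 1.00 without the 3 bud cells that detect Six2. Epha7 was highest in remaining cells, at 14.9 (SD 25.8) against 2.65 (SD 2.88) in bud and 6.04 (SD 9.32) in Six2-detecting cells. From lowest over median to highest, the values were 0, 2.51 and 7.59, 0, 2.16 and 35.6 and 0, 3.40 and 90.1, so the medians lay close together and high cells set the remaining group apart. The log2 ratios were -2.12 for bud over remaining and -1.18 for Six2-detecting over remaining cells (-0.94 without cell 87), with 4 of 7, 25 of 46 and 20 of 33 cells detecting it.

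The other Eph receptors were found in few cells. Epha2 and Ephb6 were listed at 0 in every bud cell, and each was detected in 5 of all 86 cells. Epha2 is among the rows counted as lower in bud than in remaining cells, on 2 remaining cells that detect it, so no ratio is given.

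Efnb2 was detected together with Ephb2 and with Ephb4 in most bud cells, and less often with Ephb3 and Epha4. Efnb2 was found with Ephb2 in 5 of 7 bud cells, 3 of 46 Six2-detecting cells and 0 of 33 remaining cells. With Ephb4 it was found in 5, 4 and 0 cells of these groups. With Ephb3 it was found in 2, 1 and 0 cells, and with Epha4 in 3, 3 and 1. Efnb2 was detected in 6 of 7 bud cells, and Ephb2 and Ephb4 in 5 each. Most of their overlap in bud cells thus follows from these counts. At least 1 of Ephb2, Ephb3 and Ephb4 was detected in 6 bud, 31 Six2-detecting and 17 remaining cells. Since only 2 remaining cells detected Efnb2, the pairing there rests on almost no ligand.

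**Figure D4:**
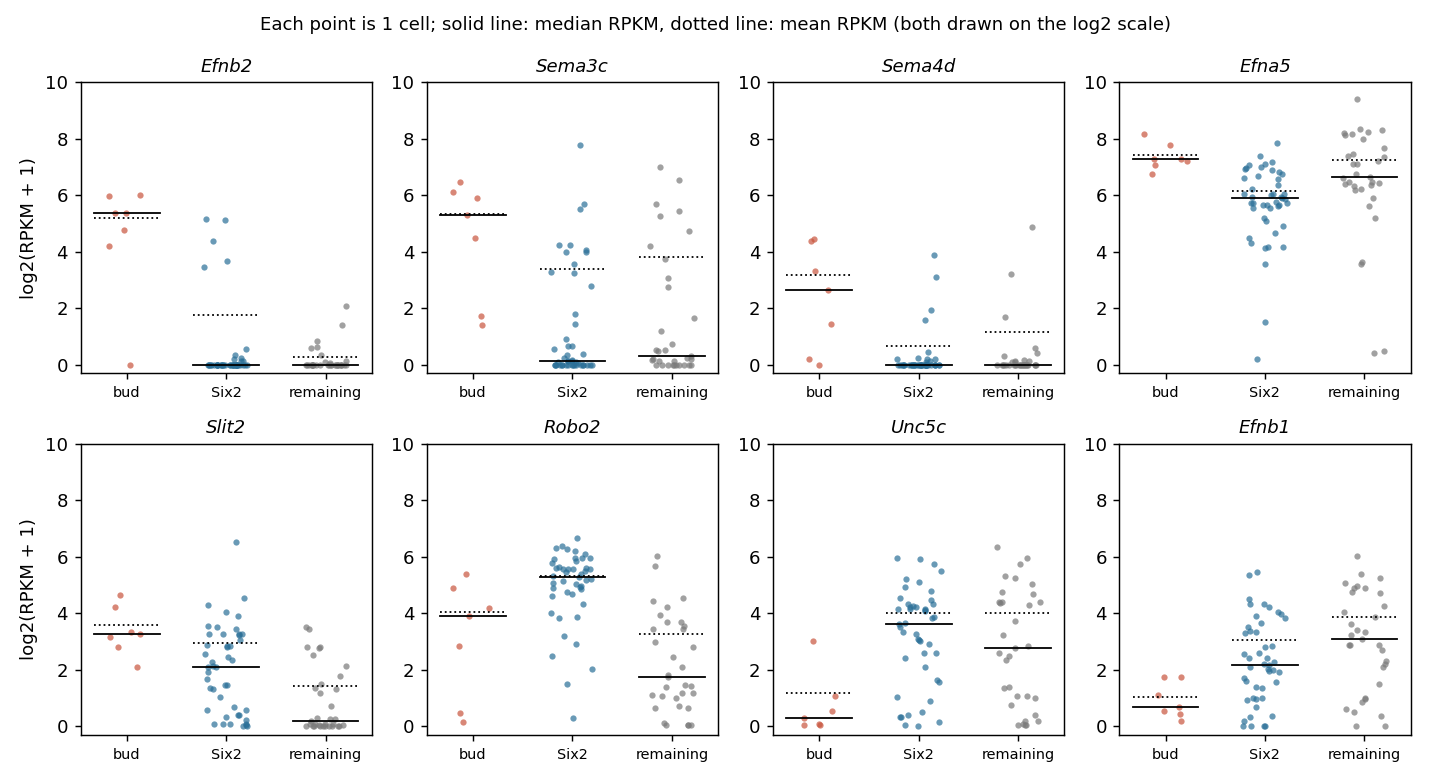
RPKM of 8 members, as log2(RPKM + 1), with 1 point per cell, a solid line at the median and a dotted line at the mean of each group (7 bud, 46 Six2-detecting and 33 remaining cells). In Efnb2 and Sema3c the medians of the other groups are near 0 while bud medians are 40.1 and 38.1, and in Robo2 the Six2-detecting cells lie highest.

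Sema3c, a secreted semaphorin that binds neuropilins, was detected in all 7 bud cells. Their RPKM values were 1.64, 2.36, 21.8, 38.1, 59.6, 67.8 and 88.9 (mean 40.0 (SD 33.6)). Six2-detecting cells had a lowest, median and highest of 0, 0.0925 and 220.3 (mean 9.56 (SD 33.5), 14 of 46 cells) and remaining cells 0, 0.232 and 129 (mean 13.0 (SD 28.9), 12 of 33 cells). The bud values spread over a wide range, and the highest cells of both other groups exceeded every bud cell. Cell 4 gave 50.1% of the summed RPKM of the Six2-detecting cells. The log2 ratio was 1.96 over Six2-detecting and 1.55 over remaining cells, with 1.64 to 2.80 and 1.23 to 1.99 when any single cell was left out.

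Sema3a, the classical repulsive semaphorin, was lower in bud. The authors' table lists it as 2 overlapping models on chromosome 5 (13125414 to 13524707, here the upstream row, and 13398997 to 13602571, the downstream row), so reads of the shared stretch could have been counted in either. The downstream row was detected in 1 of 7 bud cells (RPKM 1.26), 9 of 46 Six2-detecting cells and 13 of 33 remaining cells. Lowest, median and highest values were 0, 0 and 77.8 (mean 4.78 (SD 15.0)) and 0, 0.291 and 285 (mean 23.7 (SD 58.5)) in the latter groups, and the bud mean was 0.180 (SD 0.477). Most cells of every group were under detection, and a few remaining cells were very high. The log2 ratios were -2.29 for bud over Six2-detecting, -4.39 for bud over remaining and -2.09 for Six2-detecting over remaining cells. By the mean of log2(RPKM + 1) per cell the first was -0.63, under the 2-fold limit. The upstream row was listed at 0 in every bud cell and detected in 6 of 46 and 5 of 33 cells of the other groups. It is counted as lower in bud in both comparisons, and no ratio is given.

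Sema3d and Sema3f complete class 3. Sema3d was detected in 6 of 7 bud, 29 of 46 Six2-detecting and 13 of 33 remaining cells, with values of 0.0744, 2.65 and 35.2, 0, 2.97 and 51.8 and 0, 0.118 and 76.2 (lowest, median and highest). Its means were alike in size, at 8.96 (SD 12.7), 10.4 (SD 13.7) and 7.96 (SD 16.5), and its largest log2 ratio was 0.34, for Six2-detecting over remaining cells. Sema3f had a lower mean in bud, with a lowest, median and highest of 0, 0.332 and 4.63 against 0, 0.565 and 25.5 and 0, 0 and 43.5 in the other groups (2 of 7, 21 of 46 and 10 of 33 cells). Its means were 1.09 (SD 1.65), 4.74 (SD 6.99) and 4.23 (SD 9.72), with log2 ratios of -1.46 and -1.33 for bud over the others. The latter was -0.94 without cell 55 and -0.98 without the remaining cells that detect Pax8, Wnt4 or Lhx1. The bud median of Sema3f was not below that of the remaining cells. By the mean of log2(RPKM + 1) per cell these groups differed by -0.24.

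Sema4d, a membrane ligand of plexin-B1, was higher in bud than in both other groups. The bud cells had values of 0, 0.158, 1.72, 5.26, 9.04, 19.9 and 21.1 (mean 8.16 (SD 8.99), 5 of 7 cells). The median of both other groups was 0, with highest values of 13.8 and 28.3, means of 0.599 (SD 2.33) and 1.23 (SD 5.08), and 4 of 46 and 3 of 33 detecting cells. The log2 ratio was 2.52 over Six2-detecting and 2.04 over remaining cells. All 3 remaining cells that detected Sema4d were among the 8 that detect Pax8, Wnt4 or Lhx1, whose mean was 4.91 (SD 9.86). Sema6a, a membrane ligand of class A plexins, followed a different order. Its lowest, median and highest values were 0.242, 28.9 and 81.0 in bud, 0, 2.86 and 22.4 in Six2-detecting and 0, 11.4 and 46.5 in remaining cells (means 30.3 (SD 28.9), 4.96 (SD 5.95) and 14.4 (SD 12.4); 6 of 7, 25 of 46 and 25 of 33 cells). Six2-detecting cells were thus lowest, with log2 ratios of 2.39 for bud over Six2-detecting and -1.37 for Six2-detecting over remaining cells. Bud over remaining cells was at 1.03, just inside the 2-fold limit, and 0.57 without bud cell 3. It was 0.95 with RPKM rescaled to a common sum and 0.73 without the remaining cells that detect Pax8, Wnt4 or Lhx1.

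Other semaphorins were carried by few high cells. Sema5a had a bud lowest, median and highest of 0, 1.70 and 25.4 (mean 5.38 (SD 9.03), 5 of 7 cells), against 0, 0.0282 and 17.1 (mean 1.41 (SD 3.62), 8 of 46 cells) and 0, 0.205 and 12.6 (mean 2.55 (SD 3.48), 13 of 33 cells). Its log2 ratio over Six2-detecting cells of 1.40 was 0.34 without bud cell 20. The small RNA gene Snord123 overlaps the low-coordinate side of the Sema5a gene, and reads of the overlap are not told apart. Sema4g had values of 0, 1.95 and 24.3, 0, 0.742 and 47.6 and 0, 0 and 18.0 and means of 6.96 (SD 10.5), 4.09 (SD 8.35) and 2.62 (SD 5.04), from 4 of 7, 20 of 46 and 9 of 33 cells. For bud over remaining cells the log2 ratio was 1.14, and 0.49 without bud cell 20. Without the cells of few genes it was 1.00. Sema6d was counted as higher in Six2-detecting than in remaining cells (1.46, 12 of 46 against 2 of 33 cells). By the mean of log2(RPKM + 1) per cell this difference was 0.70, under the 2-fold limit. Sema4a, Sema4b and Sema4c reached 2-fold in no comparison, and their group means lay between 0.116 and 2.16.

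Neuropilin-1 (Nrp1), the receptor that binds class 3 semaphorins, was detected in nearly all cells. The lowest, median and highest values were 21.0, 38.1 and 94.7 in bud, 0.0709, 15.4 and 112 in Six2-detecting and 0, 16.9 and 83.8 in remaining cells (7 of 7, 43 of 46 and 27 of 33 cells). Every bud cell was above the median of both other groups. The means were 43.7 (SD 25.9), 19.8 (SD 18.9) and 25.5 (SD 23.8). For bud over Six2-detecting cells the log2 ratio was 1.10, or 0.80 without bud cell 20. Its relative Nrp2 was detected in no bud cell, no Six2-detecting cell and 4 of 33 remaining cells. Sema3c and Nrp1 were detected together in 7 of 7 bud, 13 of 46 Six2-detecting and 11 of 33 remaining cells.

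Among plexins, the signalling receptors of semaphorins, Plxna1 was higher in bud. Its lowest, median and highest values were 0, 5.37 and 26.7 in bud, 0, 0.281 and 26.1 in Six2-detecting and 0, 0.0568 and 23.7 in remaining cells, with means of 9.43 (SD 10.3), 2.49 (SD 5.35) and 1.99 (SD 5.13) (5 of 7, 13 of 46 and 9 of 33 cells). The median cells of both other groups did not detect it. Its log2 ratios were 1.58 and 1.80, and they stayed at 1.12 and 1.34 without bud cell 74. Plxna2, which binds Sema6a, went the other way. It was detected in no bud cell, 12 of 46 Six2-detecting and 8 of 33 remaining cells, with log2 ratios of -1.81 and -1.65 for bud over the others. By the mean of log2(RPKM + 1) per cell these differences were -0.67 and -0.73, under the 2-fold limit. Accordingly Sema6a and Plxna2 were detected together in 0 bud, 7 Six2-detecting and 6 remaining cells.

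Plxnb2 was the most widely detected plexin. The lowest, median and highest values were 0, 4.69 and 46.5, 0, 5.70 and 90.4 and 0, 13.4 and 130.2 in bud, Six2-detecting and remaining cells (5 of 7, 35 of 46 and 28 of 33 cells), and its means were 11.9 (SD 16.9), 12.8 (SD 18.0) and 23.8 (SD 31.5). No ratio reached 2-fold, the largest being -0.95 for bud over remaining cells. By the mean of log2(RPKM + 1) per cell the latter difference was -1.07. Plxnd1 was detected in no bud cell and counted as lower in bud than in remaining cells (-1.92). It was also lower in Six2-detecting than in remaining cells (-1.14, or -0.93 without remaining cell 23). By the mean of log2(RPKM + 1) per cell these differences of Plxnd1 were -0.71 and -0.46, under the 2-fold limit. Plxna3 and Plxnb1 were detected in 31 and 27 of all cells and reached 2-fold in no comparison. Plxna4 was detected in 4 cells and Plxnc1 in 7, none of them a bud cell.

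Netrin-1 (Ntn1), a secreted cue, was detected in 1 of 7 bud, 11 of 46 Six2-detecting and 17 of 33 remaining cells. Lowest, median and highest values were 0, 0 and 19.1, 0, 0.0679 and 16.7 and 0, 1.07 and 40.0, and its means 2.74 (SD 7.21), 1.45 (SD 3.33) and 6.00 (SD 10.3). Cell 20 alone made 99.6% of the bud sum, so the bud mean describes 1 cell. Six2-detecting over remaining cells gave a log2 ratio of -1.51. Ntn3 was detected in no bud cell, 8 of 46 Six2-detecting and 9 of 33 remaining cells, and its gene overlaps Tbc1d24. It is counted as lower in bud in both comparisons (-1.22 and -1.80). The former was -0.38 without Six2-detecting cell 39. By the mean of log2(RPKM + 1) per cell the differences of Ntn3 were -0.32 and -0.73, under the 2-fold limit.

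Unc5c, a netrin receptor that mediates repulsion, was low in bud. The 7 bud cells had values of 0.0347, 0.0379, 0.0542, 0.230, 0.444, 1.12 and 7.10 (mean 1.29 (SD 2.59)). The lowest, median and highest were 0, 11.4 and 60.6 in Six2-detecting cells (mean 15.0 (SD 15.4), 38 of 46 cells, 82.6%, interval 68.6 to 92.2%) and 0.0266, 5.85 and 80.6 in remaining cells (mean 15.3 (SD 20.0), 24 of 33 cells, 72.7%, interval 54.5 to 86.7%). Only 2 of 7 bud cells detected it (28.6%, interval 3.67 to 71.0%), and both of them also detected Six2. The log2 ratio was -2.81 over Six2-detecting and -2.83 over remaining cells, while Six2-detecting and remaining cells differed by -0.02. Ntn1 and Unc5c were detected together in 0 bud, 10 Six2-detecting and 11 remaining cells.

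The other Unc5 receptors were rare. Unc5b was detected in 2 of 7, 4 of 46 and 2 of 33 cells and was counted as higher in Six2-detecting than in remaining cells (1.04, or 0.70 without cell 81). Unc5d was detected in 2 of 7, 3 of 46 and 1 of 33 cells and was counted as higher in bud than in remaining cells (1.19, or 0.77 without bud cell 18). Of the attractive netrin receptors outside the list, named here for their role and after their values were seen, neogenin (Neo1) was detected in 6 of 7 bud, 33 of 46 Six2-detecting and 23 of 33 remaining cells. Dcc was detected in 0 of 7, 4 of 46 and 3 of 33 cells. Netrin receptors other than Unc5c were thus not absent from bud cells.

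Ligands and receptors were compared by how many of each a cell detected. Bud cells detected a median of 11 of 24 ligand rows (range 8 to 13), Six2-detecting cells 9 (3 to 15) and remaining cells 8 (1 to 14). For the 22 receptor rows the medians were 9 (6 to 10), 8 (4 to 11) and 8 (3 to 13). With detection at an RPKM of 1, the ligand medians thus differed more than the receptor medians, with ranges that overlapped. With detection set above 0, the receptor medians differed more, as the closing section gives. More ligands than receptors were detected in 7 of 7 bud cells, 28 of 46 Six2-detecting cells and 19 of 33 remaining cells. The number of all genes detected moves with these groups, with medians of 6488, 6256 and 6087, and its part in the difference was not tested.

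**Figure D5:**
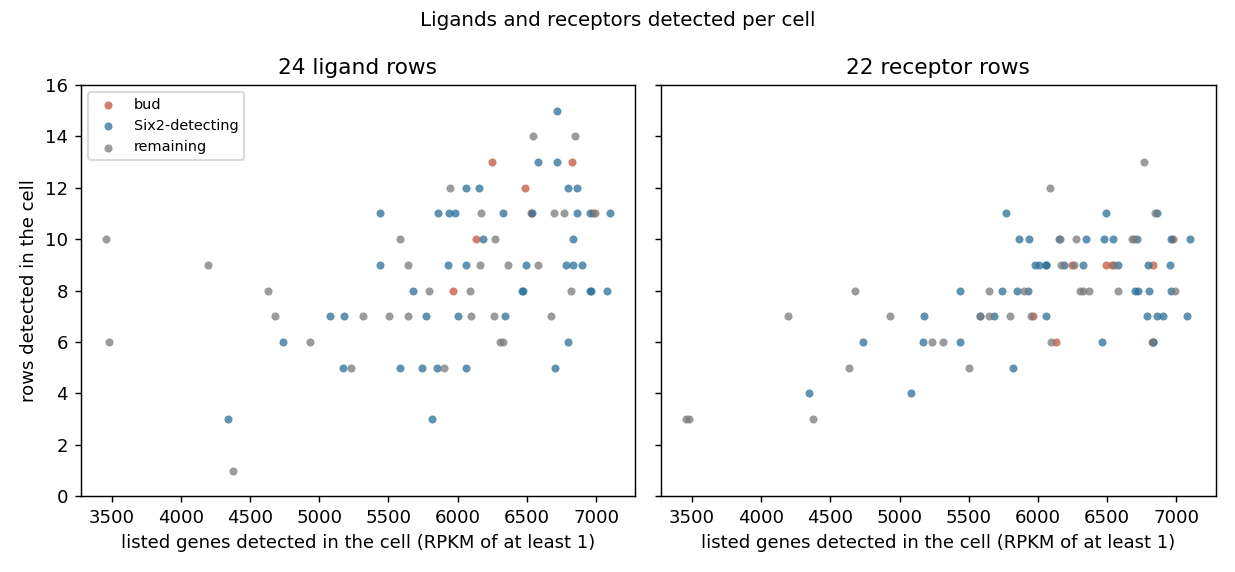
Ligand rows (left, of 24) and receptor rows (right, of 22) detected in each cell at an RPKM of at least 1, against the number of all listed genes detected in that cell, with 1 point per cell colored by group and some points on top of each other. Bud cells lie between 8 and 13 ligands and 6 and 10 receptors, and the cells with the fewest listed genes are Six2-detecting or remaining cells.

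Breadth of detection also differed between ligands and receptors. At least 50% of all cells detected 6 ligands, 7 receptors and Unc50. The ligands were Efna4, Efna5, Efnb1, Sema3d, Sema6a and Slit2, and the receptors Epha4, Epha7, Nrp1, Plxnb2, Robo1, Robo2 and Unc5c. Under 10% of cells detected 1 ligand (Sema4a) and 7 receptors (Epha2, Ephb6, Nrp2, Plxna4, Plxnc1, Unc5b and Unc5d). The rarely detected members were thus mainly receptors, while the widely detected ones were ligands and receptors in like number. Efna5, a ligand, was the only member detected in over 90% of all cells. All 7 bud cells detected Efna5, Nrp1, Sema3c and Slit2. No bud cell detected 3 ligand rows (Ntn3, Sema4c and the upstream Sema3a row) and 7 receptors (Epha2, Ephb6, Nrp2, Plxna2, Plxna4, Plxnc1 and Plxnd1). With 7 cells, a gene detected in none may still be detected in up to 41.0% of such cells by the exact interval.

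The remaining cells were not uniform for these genes. Sema6a was detected in 23 of 25 remaining cells that detect none of Pax8, Wnt4 and Lhx1, with a lowest, median and highest of 0.581, 20.7 and 46.5. In the 8 cells that detect at least 1 of them it was detected in 2 of 8, with 0, 0.118 and 20.7. The means were 17.8 (SD 11.8) and 3.61 (SD 7.36). Slit3 was detected in 12 of 25 and 0 of 8 of these cells, and the downstream Sema3a row in 12 of 25 and 1 of 8. Other members were found more often in the 8 cells with induced nephron genes. Sema4d was detected in 3 of 8 of them and 0 of 25 of the others, and Sema3f in 5 of 8 and 5 of 25. The plexin Plxnb1 was detected in 6 of 8 and 5 of 25, with means of 7.21 (SD 11.7) and 0.561 (SD 1.24). Plxna3 was detected in 4 of 8 and 5 of 25, with means of 5.99 (SD 8.30) and 0.944 (SD 2.27). The guidance genes thus differed in both directions between these cells, and no difference was tested. In the order of the 25 and the 8 cells, Efna5 was detected in 24 of 25 and 7 of 8, with means of 167 (SD 145) and 100.1 (SD 90.5), and Unc5c had 18.4 (SD 21.9) and 5.75 (SD 6.54).

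Six2-detecting cells were divided by Cited1, a gene of the least differentiated progenitors, and by Foxd1. Robo2 hardly differed with Cited1, with a mean of 40.8 (SD 25.7) in the 29 cells that detect it and 37.1 (SD 18.8) in the 17 that do not. Slit2 was detected in 18 of 29 and 14 of 17 of these cells, with medians and ends of 0, 2.17 and 18.7 and 0, 5.96 and 90.3. The cell with the highest Slit2 value is among those without Cited1. Ntn1 was detected in 11 of 31 Six2-detecting cells with Foxd1 and in 0 of 15 without it. Sema6a was detected in 21 of 31 and 4 of 15 of these cells. Both genes were thus found more often in Six2-detecting cells that also detect Foxd1, and no difference was tested.

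Bud cells that detect Six2 held most of the Robo2 of their group by count. All 3 detected Robo2, with a lowest, median and highest of 14.0, 17.2 and 29.1, while 2 of 4 bud cells without Six2 did, with 0.105, 3.27 and 41.0. Efnb2 was detected in 2 of 3 and 4 of 4 of these cells, and Sema3c in all of them. The highest single Robo2 value was in a bud cell without Six2. Bud cells detected between 0 and 6 of the 10 nephron progenitor markers, and none detected Cited1. Whether these cells hold RNA of a second cell was not tested. Without them, 17 of the 19 members named with full values that differed 2-fold from Six2-detecting cells still did, all but Epha4 and Efnb3 (-0.99).

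Among 81 other genes of these pathways (co-receptors, adaptors, intracellular regulators and proteases), 10 were at least 2-fold higher and 19 lower in bud than in Six2-detecting cells. These are 12.3% and 23.5% of the list, beside 10.3% and 20.9% of all listed genes. For bud over remaining cells the counts were 13 and 24 (16.0% and 29.6%, beside 12.3% and 22.0%), and for Six2-detecting over remaining cells 5 and 7 (6.17% and 8.64%, beside 7.40% and 7.65%). The shares of the list thus lay near those of all genes, and somewhat above them for bud over remaining cells. The medians were -0.25, -0.26 and 0.00, beside -0.19, -0.14 and 0.02 over all genes. Grb7, an adaptor that binds receptor tyrosine kinases, was detected in 7 of 7 bud, 4 of 46 Six2-detecting and 4 of 33 remaining cells, with means of 56.3 (SD 44.3), 2.56 (SD 14.9) and 4.73 (SD 15.5) and log2 ratios of 4.01 and 3.32 for bud over the others. Vav3, a guanine nucleotide exchange factor, had means of 13.5 (SD 13.7), 0.645 (SD 2.60) and 0.544 (SD 1.81) and ratios of 3.14 and 3.23. The collapsin response mediators act downstream of semaphorins. Of them, only Dpysl5 was higher in bud than in Six2-detecting cells (3.35, 4 of 7 against 1 of 46 cells). Crmp1 was lower (-3.10, 0 of 7 against 12 of 46 cells). The others listed, named after their values were seen, were also lower: Dpysl4 (-2.22), Dpysl3 (-1.35, or -0.75 without Six2-detecting cell 89) and, under 2-fold, Dpysl2 (-0.43).

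Other partners differed from the remaining cells in both directions. Sdc2, a heparan sulfate proteoglycan, had means of 3.71 (SD 9.75), 11.9 (SD 21.0) and 41.9 (SD 77.9) in bud, Six2-detecting and remaining cells. Its log2 ratios were -3.19 for bud over remaining and -1.73 for Six2-detecting over remaining cells. Bud cell 53 alone made 99.5% of the bud sum of Sdc2, so the bud mean describes 1 cell. Chl1, an adhesion molecule, was listed at 0 in every bud cell and detected in 8 of 46 and 10 of 33 cells of the other groups. Flrt2, a ligand of Unc5 receptors, had a log2 ratio of -1.41 for Six2-detecting over remaining cells (-0.96 without cell 64), and the protease Mmp2 had -1.19. Pak1, a serine/threonine protein kinase, was lowest in Six2-detecting cells, with means of 20.5 (SD 19.8), 6.56 (SD 14.3) and 16.4 (SD 35.0). Its ratio of Six2-detecting over remaining cells was -1.20 (-0.69 without cell 37). A pair of surface partners, named after their values were seen, were lowest in remaining cells. Sdc4, a relative of Sdc2, had means of 107 (SD 47.3), 77.3 (SD 54.9) and 33.4 (SD 44.2), and a ratio of 1.19 for Six2-detecting over remaining cells. Itga3, an integrin subunit, was detected in 5 of 7, 6 of 46 and 0 of 33 cells, with a ratio of 2.77 for bud over remaining cells.

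The authors' deposited table of progenitors with Six2 alone against Six2 and Cited1 lists 450 genes over 35 cells and holds 1 member. Of these cells 33 are Six2-detecting and 2 are bud cells by the Mal2 limit. In the authors' deposited table Efnb3 has a signed fold of -6.48, lower in the cells with Six2 alone. Of the 81 partners the authors' deposited table holds 4: Dpysl4 at -4.30, Itgb1 at 2.16, Farp2 at 2.92 and Dcc at 5.13. These genes were chosen by the authors from these cells, and the columns do not say which cells belong to which class. No other guidance ligand or receptor named above is in the authors' deposited table.

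Unc50, which the name rule also takes, was widely detected. It had lowest, median and highest values of 0.459, 32.7 and 172 in bud, 0.301, 27.9 and 159 in Six2-detecting and 0.181, 17.1 and 128 in remaining cells (5 of 7, 33 of 46 and 27 of 33 cells), with means of 51.9 (SD 59.9), 37.2 (SD 38.7) and 34.9 (SD 40.7). Its log2 ratios were 0.47, 0.56 and 0.09, all under 2-fold. It is in no count of ligands or receptors.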

How the data were processed

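Per the labels' protocols, cells were caught on a Fluidigm C1 instrument, amplified with a SMARTer kit and made into Nextera XT libraries, which do not mark strand. The submitters' processing notes list TopHat 1.4.1, DESeq and the build mm9, with no role or order. The authors deposited RPKM values per gene and cell, and a count of the cells in which each gene passed an RPKM of 3, per the file headers. No gene has fewer than 3 such cells, so genes found in fewer cells are not analysed here. The read depth behind the deposited RPKM is not given in the sources used here. The authors' second table also holds a signed fold, whose method is not stated.

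RPKM was used as deposited. Detection was set at an RPKM of 1, and a ratio is the log2 ratio of (mean RPKM + 1) of cell groups, called at a size of 1. Ratios were computed on all 12360 rows, of which 26 repeat a symbol. Full values were given to members detected in at least 50% of all cells, or with a 2-fold ratio, a mean RPKM of at least 3 and detection in at least 25% of cells of the higher group. Other members are named with counts or ratios. Up to 4 partners were named per comparison under these limits. The members, lists and cell groups were chosen with earlier results of these data known. All cells are 1 sample, so no test was made. Cells of few genes lie over 3 median absolute deviations below the median. Of 72 RefSeq genes whose names match the rule, 46 are listed in the table, and the others are not analysed here. Calculations ran in Python 3.11.15 (pandas 2.3.3, numpy 2.4.6, scipy 1.17.1), figures were drawn with matplotlib 3.10.9, and the ratios were checked on simulated data. The 9 kinds of alternative are described in the closing section. The marker list of neural cells is not reported here.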

Additional observations from a re-analysis of the deposited data

Results flagged for a closer look

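In 11 of the 29 members given with full values, the highest of the 7 bud cells stood far apart from the other bud cells, by a gap that makes up most of the range of the group. Chance flags about 1 in 20 such groups of evenly spread values, and RPKM of single cells are skewed. The same share over all listed genes is not given here, so the 11 are not read as a trait of these members. The highest bud value and the next one were 172 and 70.4 for Unc50 and 25.2 and 7.09 for Ephb2, both in cell 74. In cell 3 they were 30.4 and 12.5 for Efna4, 4.84 and 0 for Efnb3, and 26.4 and 11.0 for Robo1. In cell 20 they were 19.1 and 0.0723 for Ntn1 and 25.4 and 5.37 for Sema5a. In cell 18 they were 7.10 and 1.12 for Unc5c and 24.6 and 4.69 for Slit3. The downstream Sema3a row had 1.26 and 0 (cell 47), and Sema3f had 4.63 and 1.53 (cell 53). The 11 values were thus spread over 6 bud cells, with 3 in cell 3 and no more than 2 in any other. No cause was tested.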

How the results depend on the processing

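All 2-fold differences of the members given with full values (19, 16 and 10 in the 3 comparisons) kept their direction under every alternative tried, though not always a 2-fold size. With a pseudocount of 10 in place of 1, 4 rows were higher and 1 lower for bud over Six2-detecting cells, 2 and 3 for bud over remaining cells, and 1 and 2 for Six2-detecting over remaining cells. With a pseudocount of 0.1, lower rows numbered 17 for bud over Six2-detecting and 12 for Six2-detecting over remaining cells, and higher rows 17 for bud over remaining cells. With the mean of log2(RPKM + 1) per cell, lower rows numbered 3, 5 and 3 in these comparisons, and higher rows 2 for Six2-detecting over remaining cells. This averaging moved the median of all genes from -0.19 to -0.02 and from -0.14 to 0.11 in the bud comparisons. Without the highest cell of each gene in each group, higher rows numbered 7 and 6 for bud over Six2-detecting and bud over remaining cells, and the all-gene medians were -0.49 and -0.36. A larger pseudocount makes the ratio of every gene smaller. Shares of all listed genes under these settings are not given here, so the changed counts are not read as particular to the members. Medians of ligands detected per cell followed the detection limit. They were 9 in bud at an RPKM of 3, 6, 4 and 5 in bud, Six2-detecting and remaining cells at 10, and 15, 14 and 14 above 0. Medians of receptors were 7 in bud and 6 in Six2-detecting cells at 3, 4 in each group at 10, and 13, 11.5 and 11 above 0. The ligand medians thus differed more than the receptor medians at 10, and the receptor medians differed more above 0. Leaving out cells of few genes, rescaling RPKM to a common sum, leaving out bud cells that detect Six2 or remaining cells with Pax8, Wnt4 or Lhx1, and a Six2 limit of 10 moved none of the 6 counts by 1.5 times. No paired analysis was possible because all cells come from 1 pool and the result comes from no test. The depth of reads per cell is unknown, so a low value cannot be told from a missed transcript.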
